A study of Homo sapiens with 6 samples.

Results

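The 37 genes of the human mitochondrial genome were examined in lung cancer cells with and without AL-X. They were taken as every gene whose symbol starts with MT-, which gave 13 mRNA, 2 rRNA and 22 tRNA genes among the 60671 gene rows of the count table. AL-X, a diterpenoid, stands for 9α,11α-dihydroxy-kaurenoic acid. The cells were A549, HCC827 and H1975, all non-small cell lung cancer. Each was labelled wild type (WT) for genotype, a label not checked here against mutations the lines may carry, such as in the gene EGFR. They were given DMSO as the control or AL-X at 10 µg/mL in a 48 h experiment. Each line gave 1 library per treatment, so there are 6 libraries, 3 DMSO and 3 AL-X, and values given by line are in the order A549, HCC827, H1975.

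The mitochondrial genome is a small circle that encodes core subunits of the respiratory chain and of ATP synthase, together with the rRNAs and tRNAs needed to translate them inside the organelle. It is read as long transcripts from promoters on both strands by the RNA polymerase POLRMT with the factors TFAM and TFB2M. The tRNAs lie between the other genes, and their excision frees the mRNAs and rRNAs. Most mitochondrial mRNAs then receive a short poly(A) tail, which for several of them also completes the stop codon, while MT-ND6 is known as an mRNA without a stable tail. Nearly all protein genes are read from the heavy strand transcript. MT-ND6 and a minority of the tRNAs are read from the light strand transcript and are annotated on the minus strand. In GENCODE release 29, 28 of the 37 genes are on the plus strand and 9 on the minus strand, and the 9 are MT-ND6 and 8 tRNAs.

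Library totals ranged from 98139178 to 126840915 counts, and all 6 libraries expressed the epithelial keratins KRT7, KRT8 and KRT18. EPCAM was at 2.63 and 1.46 scaled counts (CPM) in A549 against 190 to 575 CPM in the other lines, KRT19 did not pass 4.93 CPM in A549, and SFTPC did not pass 0.324 CPM in any library. Epithelial and lung markers moved both ways with AL-X. CDH1 was lower in A549 (206 and 15.6 CPM), and NKX2-1 in HCC827 (247 and 40.5) and H1975 (141 and 18.8). SFTPB and NAPSA were lower in HCC827 (102 and 7.80, 114 and 49.2). KRT7 was higher in A549 (941 and 2595) and H1975 (1109 and 3560). CDH1 was higher in HCC827 (403.5 and 605) and NAPSA in H1975 (6.58 and 13.4). The part of these markers in the results was not tested. Of 12 markers of blood, endothelial and fibroblast cells, PTPRC and CD3E were at 0 in every library. CD68 was at 12.9 and 16.1 CPM in A549 with DMSO and AL-X, 69.5 and 371 in HCC827 and 80.8 and 52.6 in H1975. COL1A1 was at 1.17 to 16.0 CPM, and the rest stayed under 2.46 CPM. The scaling factor of the A549 library with AL-X, 0.557, was the lowest of the 6, the others lying between 0.903 and 1.27.

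The tRNAs on which the results turn are shown with the anticodon in capitals, as GENCODE release 29 gives the genes on GRCh38, 5′ to 3′ on the strand of the gene. The first set holds the 5 light strand tRNAs that fell in the test across lines. MT-TQ (chrM:4329-4400) serves glutamine, MT-TC (chrM:5761-5826) cysteine, MT-TY (chrM:5826-5891) tyrosine, MT-TS1 (chrM:7446-7514) serine and MT-TE (chrM:14674-14742) glutamate, all on the minus strand.
MT-TQ: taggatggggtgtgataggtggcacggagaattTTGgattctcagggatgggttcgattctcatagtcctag
MT-TC: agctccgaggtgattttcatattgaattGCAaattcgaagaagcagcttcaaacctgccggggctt
MT-TY: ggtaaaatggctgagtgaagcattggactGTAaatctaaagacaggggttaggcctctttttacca
MT-TS1: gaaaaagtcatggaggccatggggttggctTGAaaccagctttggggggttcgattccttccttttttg
MT-TE: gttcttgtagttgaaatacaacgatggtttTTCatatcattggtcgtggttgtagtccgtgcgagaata

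MT-TL1 (chrM:3230-3304), a leucine tRNA next to the large rRNA gene, and MT-TR (chrM:10405-10469), the arginine tRNA between MT-ND3 and MT-ND4L, are both on the plus strand. They are shown because HCC827 stood apart from the other lines in their counts.
MT-TL1: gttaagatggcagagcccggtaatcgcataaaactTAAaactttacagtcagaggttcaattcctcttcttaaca
MT-TR: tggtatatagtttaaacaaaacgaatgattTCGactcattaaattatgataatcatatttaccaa

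MT-ATP8 and MT-ATP6, subunits of ATP synthase, share 46 bases at chrM:8527-8572 on the plus strand, so a read from there fits both genes. The shared stretch is shown with the start codon of MT-ATP6 and the stop codon of MT-ATP8 in capitals.
MT-ATP8 and MT-ATP6: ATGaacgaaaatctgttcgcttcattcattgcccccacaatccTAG
The start of MT-ATP6 (chrM:8527-8586) is set beside that of its nuclear copy MTATP6P1 (chr1:633696-633755, plus strand), since a read may fit either. The single base that differs over these 60 is in capitals.
MT-ATP6: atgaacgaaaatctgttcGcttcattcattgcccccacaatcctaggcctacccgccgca
MTATP6P1: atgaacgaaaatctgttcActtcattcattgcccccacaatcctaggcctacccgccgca

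With DMSO the mRNAs took a similar share of the library in each line, and with AL-X all 3 classes took smaller shares, with a wider gap for the mRNAs than for the rRNAs in every line. The 13 mRNAs took 5.58% of all counts in A549, 5.39% in HCC827 and 5.67% in H1975 with DMSO. With AL-X they took 0.00281%, 0.109% and 0.0181%, which is 1988, 49.3 and 314 times less. The rRNAs took 1.26%, 1.28% and 0.726% with DMSO and 0.0173%, 0.545% and 0.0354% with AL-X, or 72.9, 2.34 and 20.5 times less. The tRNAs took 0.0315%, 0.0211% and 0.0143% with DMSO. With AL-X they took 7.40e-06% in A549 (9 counts, exact binomial 95% interval 3.39e-06 to 1.41e-05), 0.00155% in HCC827 (0.00147 to 0.00163) and 1.78e-06% in H1975 (2 counts, 2.16e-07 to 6.44e-06). Such intervals cover counting error only. For all 37 genes together the log2 change of the share averaged -6.22 ± 2.60 (SD, n = 3 lines). The share was lower in 3 of 3 lines, and the exact sign-flip permutation test over the pairs gave p = 0.25 (two-sided), the smallest it can give with 3 pairs. In bulk RNA, a loss of transcripts in every cell and a larger loss in some of the cells cannot be told apart.

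**Figure D1:**
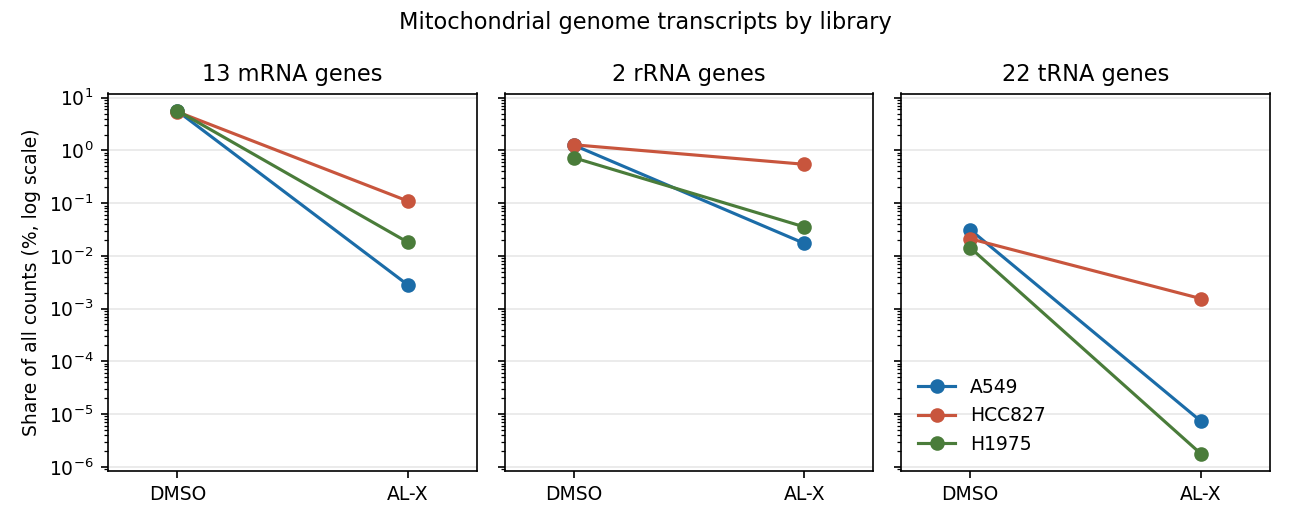
Share of all counts (%, log scale) taken by the 13 mRNA, 2 rRNA and 22 tRNA genes in each library, 1 point per library, with a line joining DMSO and AL-X of the same cell line. Each line slopes down, from 5.58% to 0.00281% for the mRNAs of A549 and from 1.28% to 0.545% for the rRNAs of HCC827.

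The make-up of the mitochondrial counts differed between the treatments as well. The mRNAs made up 81.2%, 80.6% and 88.4% of them with DMSO and 14.0%, 16.7% and 33.8% with AL-X. The rRNAs went from 18.3%, 19.1% and 11.3% to 86.0%, 83.1% and 66.2%. The tRNAs made up at most 0.459% of the mitochondrial counts in any library.

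The order of abundance with DMSO was compared per length, as scaled CPM per kilobase of gene. MT-CO1, the catalytic subunit of cytochrome c oxidase (complex IV), came first in all 3 lines, at 12285, 8796 and 9929 CPM per kilobase in A549, HCC827 and H1975. Its mean of 10337 ± 1780 (SD, n = 3) lay above MT-ATP8, a small subunit of ATP synthase, at 6748 ± 267, and their ranges did not overlap. MT-ND4L (6140 ± 651), MT-RNR2 (5513 ± 1767), MT-CO3 (5443 ± 448), MT-ND4 (5213 ± 648), MT-CO2 (4920 ± 919) and MT-ATP6 (4858 ± 287 CPM per kilobase) followed, each overlapping its neighbours. MT-RNR2 is the rRNA of the large subunit of the mitochondrial ribosome.

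A clear step separated MT-ATP6 from MT-CYB, the cytochrome b of complex III, at 2287 ± 418 CPM per kilobase (SD, n = 3). MT-ND1 (2061 ± 745), MT-ND5 (1954 ± 215) and MT-ND2 (1898 ± 284), all subunits of complex I, had ranges that overlapped that of MT-CYB and each other, although MT-CYB lay above MT-ND5 in 3 of 3 lines. Below them came MT-RNR1, the rRNA of the small ribosomal subunit, at 870 ± 356, and then MT-ND6 at 540 ± 25.0 and MT-ND3 at 501 ± 57.6. MT-ND2 lay above MT-RNR1 and MT-RNR1 above MT-ND6 without overlap, while MT-ND6 and MT-ND3 overlapped. The lines agreed closely in this order, with Spearman's rho across the 15 mRNA and rRNA genes of 0.957 between A549 and HCC827, 0.843 between A549 and H1975 and 0.904 between HCC827 and H1975. Genes are not independent replicates, and these values only describe them.

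Among mRNAs and rRNAs, MT-ND1, MT-RNR1 and MT-RNR2 differed most between the lines with DMSO. MT-ND1 was at 2805, 2061 and 1316 CPM per kilobase in A549, HCC827 and H1975, a span of 2.13 times. MT-RNR2 was at 6792, 6250 and 3498, and MT-RNR1 at 702, 1279 and 630, spans of 1.94 and 2.03 times. MT-ATP8 and MT-ND6 spanned 1.07 and 1.09 times. MT-ND1 and MT-RNR2 were lowest in H1975, and MT-RNR1 was highest in HCC827.

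**Figure D2:**
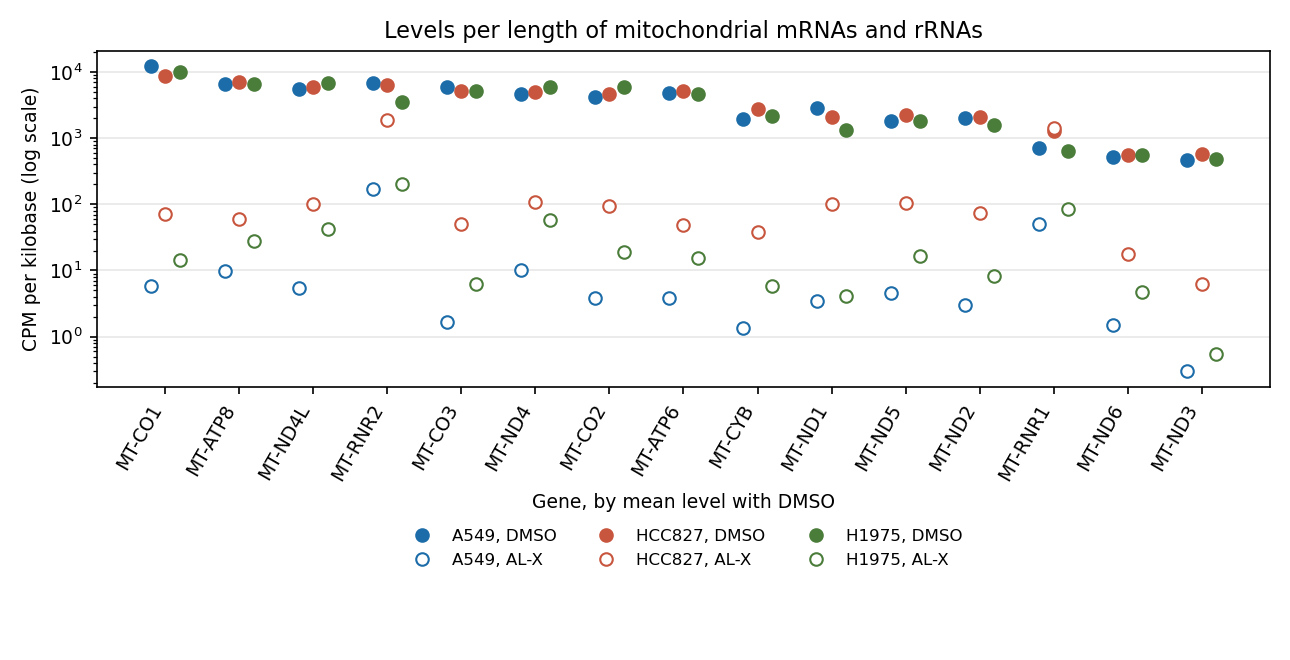
Level of the 13 mRNAs and 2 rRNAs in CPM per kilobase (log scale), ordered by the mean with DMSO. Filled points are DMSO and open points AL-X, 1 point per library, coloured by line. Open points lie far below the filled ones for every mRNA, whereas the HCC827 points of MT-RNR1 (1279 and 1430) nearly coincide.

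With AL-X, the mRNAs of all 4 enzyme complexes that the mitochondrial genome contributes to were lower. All 13 mRNAs fell across the lines (adjusted p from 0.0105 to 0.0428 by the quasi-likelihood test of edgeR), with a median log2 fold of -8.03 against -0.267 over all 20344 genes tested. Of those 20344 genes, 0.157% were called lower. Altogether 18 of the 36 mitochondrial genes tested were called lower and 0 higher, MT-TG being left out by the filter on low counts. At an unadjusted p under 0.05, 35 of the 36 were lower and 0 higher, where 10.2% of all genes tested were lower. In 33 of the 36 the AL-X libraries all lay under the DMSO libraries, as they did in 9.52% of all genes tested. Such p-values reflect the spread between the 3 lines, which edgeR shares over all genes tested, and not spread between cultures of a line. The labels do not say whether a library holds more than 1 culture.

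The log2 fold of each mitochondrial gene tested was negative in every setting, except that of MT-TR. For MT-TR it was -2.59 in the main fit, 1.49 with the lines not paired and 0.35 without A549. The count of genes called lower depended on the settings, and none was called higher in any. It was 0 with library totals as the only scaling (adjusted p of the mRNAs 0.0765 to 0.156), 0 with no filter on low counts (0.173 to 0.249), 0 with the lines not paired (0.569) and 10, with 4 mRNAs, without H1975 (MT-ATP8, MT-ND3, MT-ND4L and MT-ND6). In the first 3 of these fits 0 genes of the whole table were called either. It was 31 by DESeq2, 27 by limma-voom, 25 without HCC827 and 18 without A549. Of all genes tested, DESeq2 called 6.81% lower, limma-voom 1.6%, and edgeR 0.364% without H1975, 0.275% without HCC827 and 0.369% without A549. With library totals alone the median of all genes was -0.691 and that of the mRNAs -8.44.

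Across the lines MT-CO3 and MT-CO1, subunits of cytochrome c oxidase, had the largest log2 folds of the 13 mRNAs, within an SE of the next ones. MT-CO1 had 2338524, 2004599 and 1921706 counts with DMSO in A549, HCC827 and H1975 and 607, 13880 and 2285 with AL-X. Every AL-X library lay far below every DMSO library, and HCC827 kept the most. Scaled for depth, MT-CO1 was 2112, 122 and 678 times lower, and fell by 9.18 log2 units across the lines (SE 1.49, edgeR adjusted p = 0.031). MT-CO3 had 576910, 599375 and 511313 counts with DMSO and 88, 4868 and 503 with AL-X. It was 3594, 104 and 820 times lower, the A549 value being the largest difference of any mRNA in any line. MT-CO2 had 349208, 474285 and 509238 counts and then 180, 8195 and 1322. At 1063, 48.9 and 311 times lower, it differed less than the other subunits of its complex in each line.

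For ATP synthase, MT-ATP6 had 409605, 517051 and 390151 counts with DMSO and 180, 4086 and 1058 with AL-X, or 1247, 107 and 297 times less after scaling. MT-ATP8 had 168946, 215856 and 170903 counts and then 136, 1570 and 593, or 681, 116 and 233 times less. In HCC827 these genes kept 0.935% and 0.860% of their DMSO level, less than any of the 7 complex I mRNAs there. For complex III, MT-CYB had 274862, 464533 and 308657 counts with DMSO and 106, 5447 and 664 with AL-X, which was 1421, 72.1 and 375 times lower.

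Complex I mRNAs spread widely. MT-ND4, which encodes a proton-pumping subunit, had 792802, 1028941 and 1024819 counts with DMSO and 962, 18677 and 8002 with AL-X. It was 452, 46.6 and 103 times lower, in H1975 the smallest difference of the 13 mRNAs. Its exact binomial 95% interval there (log2 fold -6.72 to -6.66) lay above that of MT-ND5 (-6.87 to -6.77), the next smallest. MT-ND5, another proton-pumping subunit, had 406348, 589644 and 419047 counts and then 551, 23546 and 2993, or 404, 21.2 and 113 times less. MT-ND1 had 331065, 291246 and 157929 counts with DMSO and 226, 12223 and 405 with AL-X. Its difference was 803 and 315 times in A549 and H1975 but 20.1 times in HCC827, where it was the smallest of the mRNAs.

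MT-ND2 had 260604, 322546 and 205681 counts with DMSO and 210, 9741 and 881 with AL-X, and MT-ND4L had 204628, 262710 and 255516 and then 108, 3689 and 1291. MT-ND3 had 19652, 28982 and 20658 counts with DMSO and 7, 266 and 19 with AL-X. It was 1539, 92.1 and 877 times lower, and fell by 8.92 log2 units across the lines (SE 0.95, edgeR adjusted p = 0.0105). MT-ND6, the only mRNA of the light strand, had 33207, 42445 and 36958 counts and then 53, 1182 and 249. At 343, 30.4 and 120 times lower it lay near MT-ND5 and MT-ND4 in A549, where its 53 counts gave a log2 fold between -8.84 and -8.04 (exact binomial 95% interval) against -8.78 to -8.54 for MT-ND5. It fell by 6.75 log2 units across the lines (SE 0.83, adjusted p = 0.0105).

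A single line has no replicates, so no test was made within it. Among genes whose higher library reached 5 CPM, with 2-fold or more counted as a difference, all 13 mRNAs were lower in every line, where 31.6%, 17.3% and 17.8% of all such genes were lower in A549, HCC827 and H1975. At 32-fold or more, 13, 9 and 13 mRNAs were lower, where 1.71%, 0.545% and 0.296% of all such genes were. The median log2 fold of the mRNAs was -10.02, -5.91 and -8.22. Between 0.0278% and 0.291% of an mRNA's DMSO level was left in A549, between 0.819% and 4.96% in HCC827 and between 0.114% and 0.968% in H1975.

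The mRNAs that differed most in one line tended to do so in the others. Across the 13 mRNAs, Spearman's rho of the log2 folds was 0.896 between A549 and H1975, 0.687 between A549 and HCC827 and 0.511 between HCC827 and H1975. The distance of a gene from the start of MT-TF, the first gene of the heavy strand transcript, had little relation to its fold among the 12 heavy strand mRNAs (rho 0.0699, 0.0140 and 0.224). Gene length had rho 0.0549, 0.302 and 0.104 with the fold, and the level per kilobase with DMSO had -0.374, -0.709 and 0.0549, so in HCC827 the more abundant mRNAs tended to differ more. The level is also the denominator of the fold. These values share the libraries and describe the genes only.

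**Figure D3:**
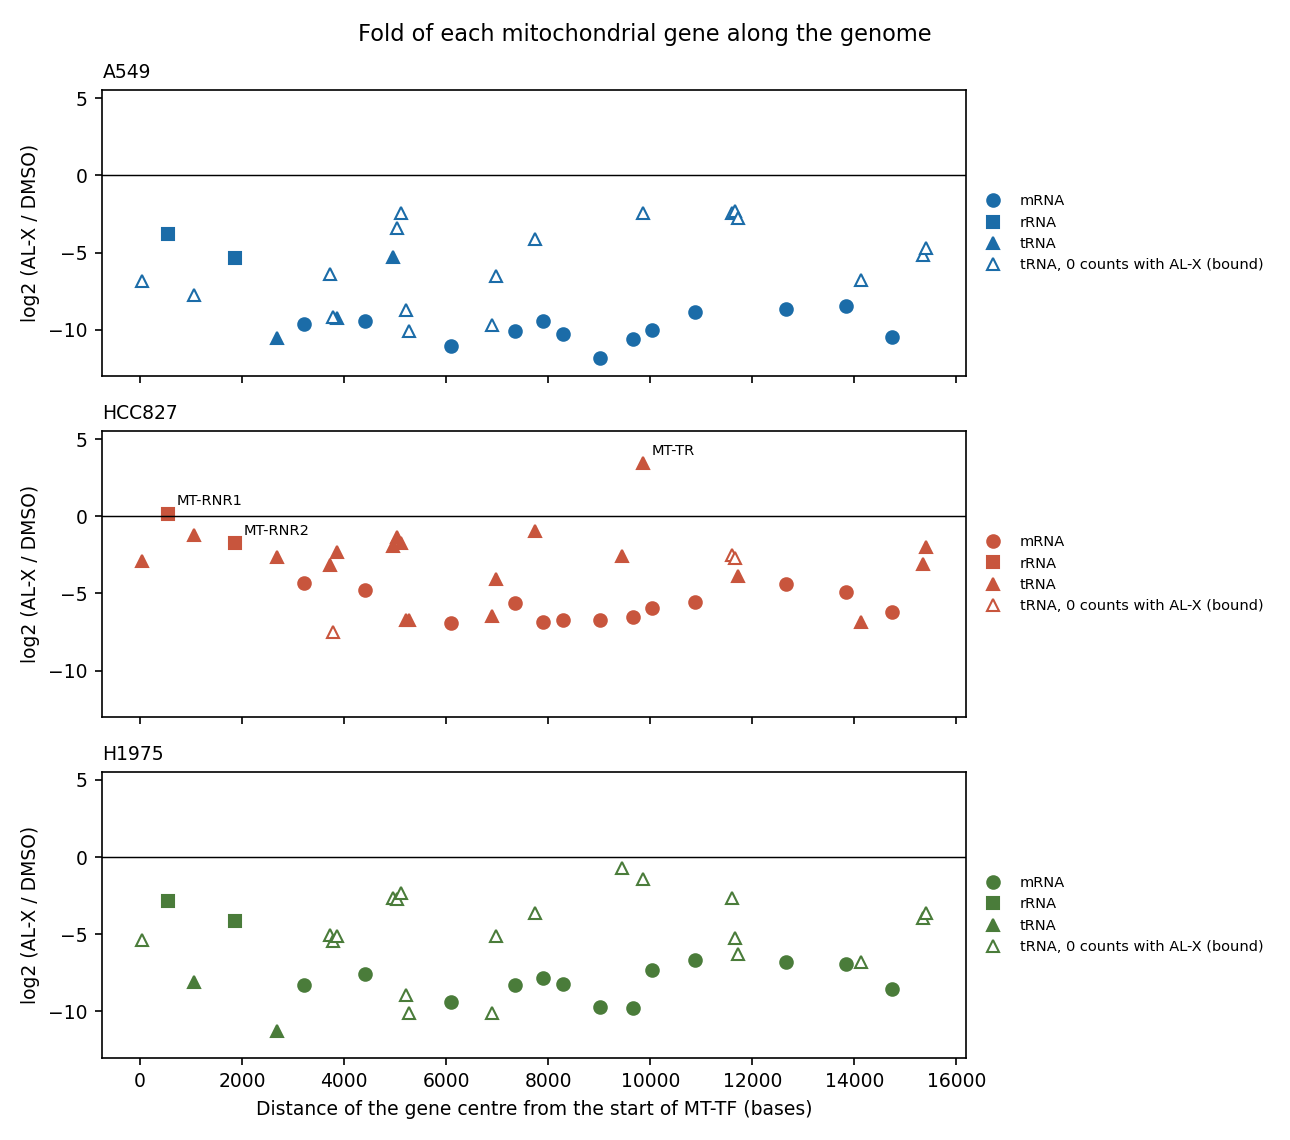
Log2 of AL-X over DMSO for each mitochondrial gene against the distance of its centre from the start of MT-TF, in bases, for each line. Circles are mRNAs, squares rRNAs and triangles tRNAs, and open triangles are bounds for tRNAs at 0 counts with AL-X. The mRNAs form a low band in each panel, and MT-RNR1 and MT-TR lie above 0 in HCC827.

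Among the transcripts that were left, the balance between complexes had shifted. Complex I mRNAs made up 33.2%, 37.5% and 35.7% of the mRNA counts with DMSO and 62.0%, 64.6% and 68.3% with AL-X. Complex IV mRNAs went from 52.9%, 45.0% and 49.6% to 25.6%, 25.1% and 20.3%. The ratio of complex IV to complex I counts was 1.59, 1.20 and 1.39 with DMSO and 0.413, 0.389 and 0.297 with AL-X, a comparison chosen after the values were seen. ATP synthase to complex I was 0.282, 0.286 and 0.265 and then 0.149, 0.0816 and 0.119. Both ratios were lower with AL-X in 3 of 3 lines, and the groups did not overlap.

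Single mRNAs of these complexes did not all follow 1 direction. MT-CO1 went from 37.9%, 29.3% and 32.4% of the mRNA counts to 17.8%, 12.9% and 11.3%, and MT-CO3 from 9.36%, 8.76% and 8.62% to 2.58%, 4.53% and 2.48%. MT-ND4 went from 12.9%, 15.0% and 17.3% to 28.2%, 17.4% and 39.5%, and MT-ND5 from 6.59%, 8.62% and 7.06% to 16.1%, 21.9% and 14.8%. MT-ND2, MT-ND4, MT-ND5 and MT-ND6 took a larger share in all 3 lines. MT-CO1, MT-CO3, MT-ATP6, MT-ND3 and MT-CYB took a smaller one in all 3, and the other 4 mRNAs went different ways in different lines.

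**Figure D4:**
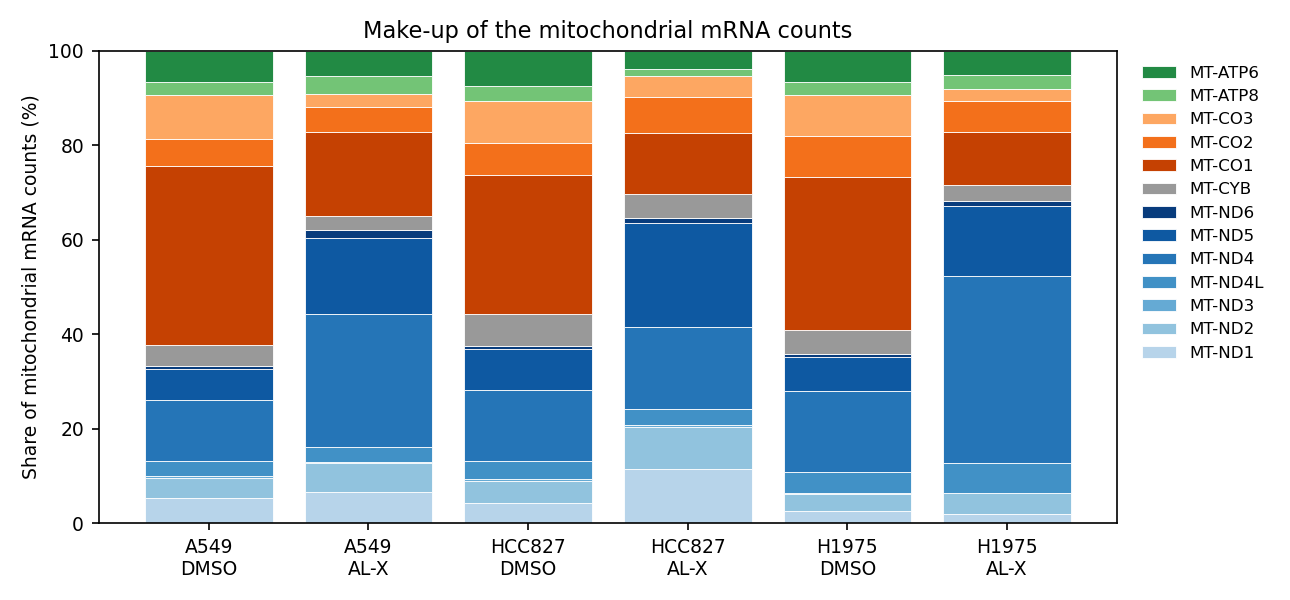
Share of the mitochondrial mRNA counts (%) taken by each of the 13 mRNAs, 1 stacked bar per library, with complex I in blues, complex III in grey, complex IV in oranges and ATP synthase in greens. In each line the blue part is larger with AL-X, at 62.0% to 68.3% against 33.2% to 37.5% with DMSO.

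The differences of the rRNAs between AL-X and DMSO were larger in A549 and H1975 than in HCC827, and neither rRNA passed the test across lines. MT-RNR1 (chrM:648-1601) had 82627, 180390 and 75385 counts with DMSO and 3272, 170435 and 8283 with AL-X. After scaling it was 13.8 and 7.34 times lower in A549 and H1975 and 1.12 times higher in HCC827, so the groups overlapped. Across lines its log2 fold was -2.28 (SE 0.93, edgeR adjusted p = 0.272). MT-RNR2 (chrM:1671-3229) had 1307249, 1440105 and 684373 counts with DMSO and 17715, 364463 and 31441 with AL-X. It was 40.5, 3.34 and 17.6 times lower, with no overlap between the groups, and its log2 fold across lines was -3.79 (SE 1.12, adjusted p = 0.166). Without HCC827 both rRNAs were called lower, and DESeq2 called both on all 3 lines.

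Within a library, rRNA stood higher against mRNA with AL-X, a comparison that does not depend on the scaling between libraries. The ratio of rRNA to mRNA counts was 0.225, 0.237 and 0.128 with DMSO and 6.15, 4.98 and 1.96 with AL-X. It was higher in 3 of 3 lines, by 4.37 ± 0.42 log2 units on average (SD, n = 3), and the groups did not overlap. The exact sign-flip permutation test gave p = 0.25 (two-sided), the smallest possible. MT-RNR1 also stood higher against MT-RNR2, at 0.0632, 0.125 and 0.110 with DMSO and 0.185, 0.468 and 0.263 with AL-X, again with no overlap. Against MT-ND1, the next mRNA on the heavy strand, MT-RNR1 went from 0.2496, 0.619 and 0.477 to 14.5, 13.9 and 20.5. Per length, MT-RNR2 and MT-RNR1 were the most abundant mitochondrial genes of every AL-X library, in that order, and MT-ND4 came next in each. Libraries were made with an mRNA kit, so rRNA levels need not reflect the amounts in the cell.

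**Figure D5:**
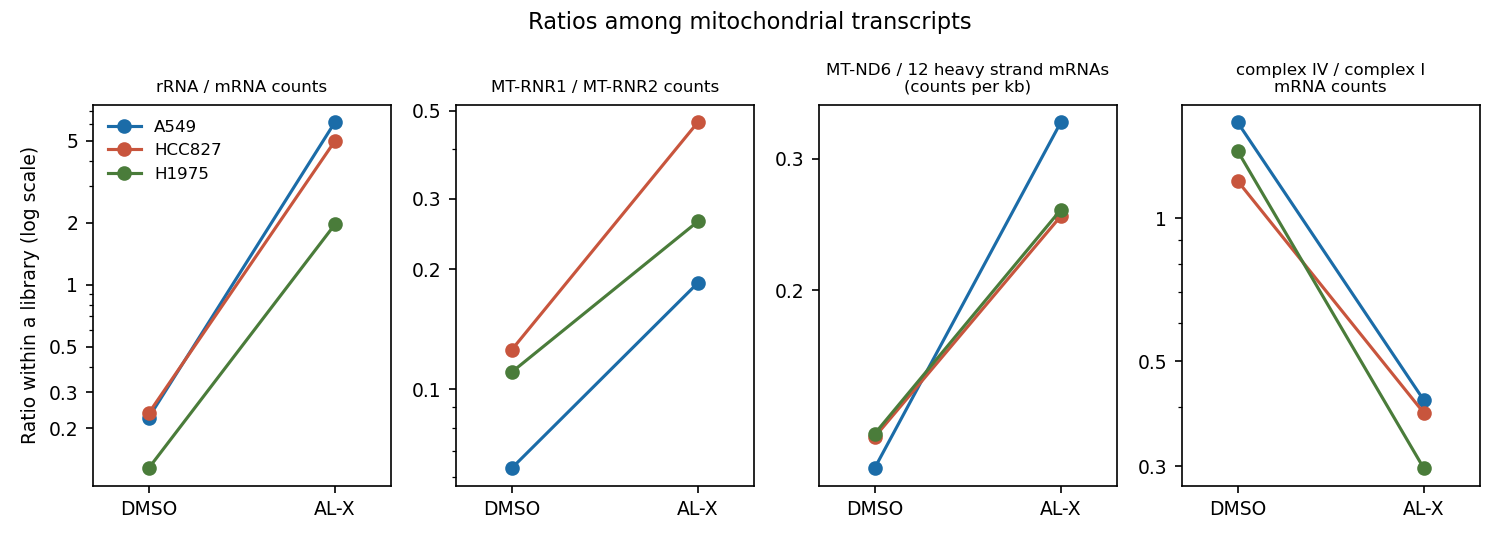
Ratios within a library (log scale) with DMSO and AL-X, 1 point per library and a line per cell line. The panels show rRNA to mRNA counts, MT-RNR1 to MT-RNR2 counts, MT-ND6 to the mean of the 12 heavy strand mRNAs per kilobase, and complex IV to complex I mRNA counts. The first 3 ratios are higher and the last is lower with AL-X in all 3 lines.

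Light strand against heavy strand was compared through MT-ND6. Per kilobase, MT-ND6 stood at 0.116, 0.127 and 0.129 of the mean of the 12 heavy strand mRNAs in A549, HCC827 and H1975 with DMSO. With AL-X it stood at 0.336, 0.252 and 0.257, above every DMSO value. The change averaged 1.17 ± 0.32 log2 units (SD, n = 3), with p = 0.25 by the exact sign-flip permutation test (two-sided), the smallest possible. For the light strand as a whole, the direction depended on what it was set against. Its 9 genes together made up 0.656%, 0.722% and 0.708% of the mitochondrial counts with DMSO and 0.217%, 0.216% and 0.415% with AL-X. Their share of all counts was 1034, 34.2 and 204 times lower, against 341, 10.2 and 119 times for the 28 heavy strand genes, which include the rRNAs. That of the 12 heavy strand mRNAs was 2008, 49.5 and 316 times lower. Relative to these mRNAs, the 9 light strand genes stood higher with AL-X, as MT-ND6 did. In A549 and H1975 MT-ND6 held all of their AL-X counts. Against MT-ND5, whose gene lies next to it on the opposite strand, MT-ND6 showed no common direction. The counts of MT-ND6 were 8.17%, 7.20% and 8.82% of those of MT-ND5 with DMSO and 9.62%, 5.02% and 8.32% with AL-X, so this ratio overlapped between the groups. The strand setting of the counting is not given in the sources used here, and counts of a gene cannot be told apart from reads of the other strand at the same place.

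Mature tRNAs are short, highly structured and not polyadenylated, and whether the counts over tRNA genes came from mature tRNAs or from longer RNAs was not tested. With DMSO all 22 had counts, from 3 to 10541 in A549 (median 321), 14 to 9560 in HCC827 (median 202) and 6 to 4067 in H1975 (median 129). The 6 highest took 88.3%, 90.9% and 90.8% of the tRNA counts. MT-TY, MT-TL1, MT-TS1 and MT-TC were among the 6 highest in each line. Some tRNAs differed widely between the lines with DMSO: MT-TM, for methionine, was at 528, 91.1 and 15.2 CPM per kilobase in A549, HCC827 and H1975, and MT-TQ at 358, 59.9 and 17.6. MT-TL2 and MT-TS2, neighbours on the heavy strand, were highest in H1975 and spanned 7.84 and 7.07 times.

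With AL-X, 19 of the 22 tRNA genes were at 0 counts in A549, 20 in H1975 and 3 in HCC827. In A549 the counts left were 4 for MT-TL1, 4 for MT-TM and 1 for MT-TW, and in H1975 they were 1 for MT-TL1 and 1 for MT-TV. Across lines 5 of the 21 tRNAs tested fell, all on the light strand, where 0.157% of all genes tested were called lower. They were 5 of 8 tested on the light strand and 0 of 13 on the heavy strand, a difference not tested itself. It depended on the fit, since DESeq2 called 6 and 10, limma-voom 5 and 8, and edgeR without HCC827 5 and 5. At an unadjusted p under 0.05, 8 of 8 and 12 of 13 were lower.

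MT-TY had 5850, 9560 and 4067 counts with DMSO and 0, 76 and 0 with AL-X. Against a floor of 3 counts in the AL-X library it was lower by at least 1069-fold in A549 and at least 1094-fold in H1975, and by 106 times in HCC827 (edgeR adjusted p = 0.0151). MT-TS1 had 4424, 3986 and 4033 counts and then 0, 39 and 0, and MT-TC had 2287, 4065 and 1779 and then 0, 33 and 0. In A549 the lower bound for MT-TS1 was 808-fold, in H1975 it was 1085-fold, and in HCC827 the gene was 86.4 times lower (edgeR adjusted p = 0.0214). MT-TE, the gene next to MT-ND6, had 605, 402 and 408 counts and then 0, 3 and 0. MT-TQ had 3185, 637 and 159 and then 0 in each, which was the only member called that was at 0 in all AL-X libraries. In every one of these 5 the AL-X libraries lay under the DMSO libraries.

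Most tRNAs on both strands had counts left with AL-X in HCC827 and few did in the other lines. On the heavy strand 3, 12 and 2 of the 14 had counts (A549, HCC827, H1975), and on the light strand 0, 7 and 0 of the 8. MT-TH and MT-TS2 on the heavy strand were at 0 in every AL-X library. Of the light strand tRNAs, MT-TA, MT-TN and MT-TP kept 40.3%, 29.6% and 25.2% of their DMSO level in HCC827. These values rest on 47, 28 and 150 counts with DMSO and 16, 7 and 32 with AL-X, and the intervals of their folds overlapped. MT-TL1 had 10541, 5187 and 2995 counts with DMSO and 4, 691 and 1 with AL-X. In HCC827 it was 6.35 times lower, and in A549 and H1975 its log2 fold was -10.50 (exact binomial 95% interval -12.37 to -9.14) and -11.24 (-16.54 to -8.76). It did not pass across lines (adjusted p = 0.131). MT-TV, the valine tRNA between the rRNA genes, had 1195, 476 and 341 counts with DMSO and 0, 172 and 1 with AL-X, so 2.34 times less in HCC827. MT-TR had 30, 17 and 10 counts with DMSO and 0, 155 and 0 with AL-X. It was 10.8 times higher in HCC827, at least 5.48-fold lower in A549 and at least 2.69-fold lower in H1975, and its groups overlapped (adjusted p = 0.632). In HCC827, 18 tRNAs with counts left were lower and MT-TR alone was higher.

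The ratio of tRNA to mRNA counts showed no common direction. It was 0.564%, 0.392% and 0.253% with DMSO and 0.264%, 1.42% and 0.00987% with AL-X. The log2 change averaged -1.31 ± 3.27 (SD, n = 3; exact sign-flip permutation p = 0.75, two-sided) and was 0.38 without H1975, whose AL-X value rests on 2 counts. Light strand tRNA counts were 0.910, 2.38 and 2.36 times the heavy strand ones with DMSO. With AL-X the ratio was 0.157 in HCC827, and no light strand tRNA had a count in the other lines.

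HCC827 kept more of most mitochondrial transcripts than the other lines did. Its difference from the mean of A549 and H1975 was fitted as an interaction with 1 residual degree of freedom. HCC827 has 1 library per treatment and adds nothing to the spread, which edgeR takes from A549 and H1975 and pools over all genes tested. The p-values rest mostly on that pooled spread, and HCC827 is assumed to vary like the other lines. The line was chosen for this with earlier results known, and the p-values describe these libraries only. Of the 36 genes tested, MT-TH, MT-TQ and MT-TS2 were at 0 in all AL-X libraries and give no size. The other 33 had the smaller fitted fall, or a rise, in HCC827, the direction that 10837 of all 20344 genes tested had. For tRNAs at 0 AL-X counts in both A549 and H1975 but not in HCC827, this direction was fixed in advance. All 13 mRNAs and both rRNAs were among the 33 and had counts left in every AL-X library. MT-TL1 (interaction 8.03 log2 units, SE 1.505, edgeR adjusted p = 0.000123), MT-TY (adjusted p = 0.0242) and MT-TS1 (adjusted p = 0.0373) fell under the threshold, where 0.261% of all genes tested did. These rest on 4, 0 and 0 AL-X counts in A549 and 1, 0 and 0 in H1975. None of the 13 mRNAs or the 2 rRNAs passed. At an unadjusted p under 0.05, 10 of the 13 mRNAs and both rRNAs did so, 25 of all 36 genes, where 4.81% of all genes tested differed in that direction. The median interaction of the mRNAs was 3.33 log2 units. With library totals as the only scaling, or with no filter, 0 of the genes passed.

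Copies of mitochondrial sequence in the nuclear genome can take reads from these genes. The table holds 404 rows with symbols of such copies, and together they had 2.60%, 2.95% and 2.75% as many counts as the mitochondrial genes with DMSO. MTATP6P1, MTCO1P12 and MTND2P28, which lie in 1 stretch of chromosome 1, held 99.1%, 98.9% and 98.7% of those. With AL-X the copies had 0.889%, 0.538% and 0.995% as many counts as the mitochondrial genes, and the same 3 held 38.2%, 93.0% and 76.5% of the 217, 3464 and 597 counts. They match MT-ATP6, MT-CO1 and MT-ND2 at 98.532%, 98.639% and 98.369% of bases. Of the 100-base windows of these mitochondrial genes, 11.856%, 27.859% and 26.087% occur unchanged in the copy. All 3 copies fell with AL-X. MTATP6P1 had 101336, 129511 and 101046 counts with DMSO and 40, 1163 and 298 with AL-X.

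Counts of the copies were also set against those of the mitochondrial genes they resemble. MTATP6P1 had 24.7%, 25.0% and 25.9% of the counts of MT-ATP6 with DMSO and 22.2%, 28.5% and 28.2% with AL-X. MTCO1P12 had 2.04%, 2.40% and 2.15% of those of MT-CO1 and then 2.97%, 3.32% and 2.41%. MTND2P28 had 17.8%, 21.7% and 19.4% of those of MT-ND2 and then 11.9%, 16.4% and 11.8%, lower in 3 of 3 lines. Of 12 copies tested, 4 were called lower, where 0.157% of all genes tested were, the last being MTCO3P12, with 502, 686 and 463 counts and then 0, 8 and 0. How the counting treated reads that fit both places is not given in the sources used here. Adding all copies to the mitochondrial counts gave a mean log2 change of the share of -6.25, close to the -6.22 without them.

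Overlapping genes carry a like limit. The counts of MT-ATP8 were 0.412, 0.417 and 0.438 of those of MT-ATP6 with DMSO and 0.756, 0.384 and 0.560 with AL-X. MT-ND4L and MT-ND4 share 7 bases, and their count ratio was 0.258, 0.255 and 0.249 with DMSO and 0.112, 0.198 and 0.161 with AL-X, lower in 3 of 3 lines. Of the 13 mRNA genes, 6 end inside a codon in the annotation, namely MT-CO3, MT-CYB, MT-ND1, MT-ND2, MT-ND3 and MT-ND4, and the stop codon is then completed by the tail. Their differences ran over the whole range of the mRNAs, from MT-CO3 at the large end in A549 to MT-ND4 at the small end in H1975.

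Nuclear genes that run mitochondrial transcription, replication and RNA processing gave no call across the lines. None of the 58 tested in 4 lists was called by edgeR (0 higher and 0 lower), where 0.157% of all genes tested were called lower and 0.0983% higher. At an unadjusted p under 0.05, 4 were lower and 3 higher (10.2% and 5.48% of all genes tested), and DESeq2 called 3 (TK2 and DNA2 lower, GABPA higher), where it called 9.76% of all genes tested. The median log2 fold was -0.39 over the 10 transcription genes, 0.0035 over the 15 for replication and -0.051 over the 26 for RNA processing. It was 0.57 over the 7 tested regulators of nuclear genes for mitochondria, against -0.267 for all genes. PPARGC1A, the other listed regulator, was left out by the filter on low counts. It had 3212, 5 and 0 counts with DMSO and 12, 0 and 0 with AL-X, so its fall in A549 is not part of these values.

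POLRMT had 8858, 6693 and 8501 counts with DMSO and 1615, 6096 and 5821 with AL-X. Its log2 fold across lines was -0.57 (SE 0.51, edgeR adjusted p = 0.591), and the A549 library with AL-X was the lowest. TFAM, which packages the genome and opens its promoters, had 9395, 10988 and 8263 counts and then 29722, 4869 and 6026, higher in A549 and lower in HCC827. TFB2M had a log2 fold of 0.34, made up of 1.98, -0.50 and -0.33 by line. The elongation factor gene TEFM had -0.33, made up of -0.05, 0.52 and -1.46, so neither had a common direction. MTERF3 and TFB1M were at the ends of this list, at 1.26 and -1.76 (adjusted p = 0.352 and 0.347), with MTERF2 at -1.27.

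For replication, the polymerase gene POLG stood at 1.05 (SE 0.45, edgeR adjusted p = 0.295), and the helicase gene TWNK at 0.0035. TK2 and DGUOK, which make nucleotides for mitochondrial DNA, were at opposite ends, at -1.97 (adjusted p = 0.208) and 1.23 (adjusted p = 0.27), and the nuclease and helicase gene DNA2 was at -1.55. TK2 had 3403, 2043 and 2273 counts with DMSO and 351, 282 and 1025 with AL-X. Among genes of RNA processing and decay, LRPPRC, which holds mRNAs stable with SLIRP, was at -0.07 and SLIRP at 1.00. The poly(A) polymerase gene MTPAP was at 0.11, and PNPT1 and SUPV3L1, the nuclease and helicase that degrade mitochondrial RNA, were at -0.04 and 0.95. TBRG4 was at 0.96, MRM1 at -1.44 and FASTKD2 at -1.26. Of the regulators tested, GABPA (1.84, adjusted p = 0.211) and YY1 (1.44) were highest, and PPARGC1B (-2.02, adjusted p = 0.279) and NRF1 (-0.59) lowest.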

How the data were processed

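RNA was measured in 6 libraries, made from total RNA extracted with Trizol and an mRNA kit (SureSelect XT HS2), per the labels' protocols. In 1 table, the authors deposited raw read counts per gene (whole numbers). The submitters' processing notes name bcl2fastq 2.20 and GRCh38. Not given in the sources used here are the aligner, counter, annotation release, strand setting and any molecular barcodes. Symbols came from a table of gene names, and positions, strands, lengths and sequences from GENCODE release 29 (GRCh38).

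Libraries of a line form a pair by the cell line label, and their deviations from the group means correlated at 0.65, 0.521 and 0.686. Across lines, edgeR 4.0.16 (R 4.3.3, filterByExpr, TMM, line as a block, robust quasi-likelihood test, Benjamini-Hochberg over all genes tested at 0.05) had 2 residual degrees of freedom. For each gene the test draws the spread toward that of all genes tested, so its p-values rest on more than these 2. An SE was the fold divided by the root of its F value. Folds within a line are ratios of scaled CPM with exact binomial 95% intervals. For counts over all genes a prior count of 2 was added, and lower bounds used a floor of 3 counts. Shares used raw totals. Ratios within a library were compared by an exact sign-flip permutation over the 3 pairs. No such test of this design can pass 0.05. Scripts were tested on simulated data.

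The genes, the lists and the tests were chosen with earlier results of these data known. Named were all MT- genes, nuclear copies averaging at least 5 CPM, up to 2 genes from either end of each nuclear list, and 11 core genes of mitochondrial transcription, replication and RNA handling. MTCO3P12 and PPARGC1A were named after their values were seen. Alternatives were DESeq2 1.42.0 (size factors or Wald test), library totals, mitochondrial genes left out of the scaling, no filter, 1 CPM in 3 libraries, limma-voom (3.58.1), no robust shrinkage, no block, each line left out and other summaries of the ratios.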

Additional observations from a re-analysis of the deposited data

Results flagged for a closer look

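These 5 genes stood out because HCC827 went its own way. MT-RNR1 had a log2 fold of 0.16 in HCC827 with AL-X, where A549 and H1975 had -3.79 and -2.88, and its interaction did not pass (edgeR adjusted p = 0.266). MT-TR had 3.43 in HCC827, from 17 to 155 counts, and 0 counts with AL-X in both other lines (interaction adjusted p = 0.322). The edgeR interaction of HCC827 with treatment had an adjusted p of 0.000123 for MT-TL1, 0.0242 for MT-TY and 0.0373 for MT-TS1. HCC827 has 1 library per treatment and was chosen with its values known. The spread comes from the other lines and is pooled over all genes tested, so these values describe the libraries only. MT-TL1 kept 15.8% of its DMSO level in HCC827, MT-TY 0.940% and MT-TS1 1.16%. For MT-TY and MT-TS1 the other lines were at 0 counts with AL-X, so the size of the difference has no finite estimate.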

How the results depend on the processing

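The count of 18 mitochondrial genes called lower was 0 with library totals as the only scaling, 0 with no filter and 0 with no replicate block, that is, with the lines not paired, and 0 genes of the whole table were called in these fits. At an unadjusted p under 0.05, 32, 32 and 25 genes were lower in these fits. It was 31 by DESeq2's Wald test, 27 by limma-voom, 16 with at least 1 CPM in 3 libraries, and 18 with DESeq2 size factors, with mitochondrial genes left out of the scaling and with no robust shrinkage. Leaving out a line gave 10 to 25 genes, 10 without H1975 and 25 without HCC827. Over all genes, 52 of 20344 were called by edgeR in either direction, 1986 by DESeq2, 618 by limma-voom, 42 of 14390 with the 1 CPM filter, 143 of 21133 without A549, 184 of 20734 without HCC827 and 106 of 21401 without H1975. No member was called higher in any of these fits. The nuclear gene count of 0 was 3 by DESeq2, and 0 to 1 with a line left out (PPARGC1A lower without H1975). The 3 genes under the threshold for the interaction of HCC827 were 0 with library totals and 0 with no filter. Of 27 alternatives for the shares and ratios, 26 kept the direction. The log2 change of the tRNA to mRNA ratio, -1.31, ranged from -2.89 to 0.38 with a line left out, the last without H1975, and was -0.02 with 0.5 counts added to each gene. Its median over genes gave no value, being at 0 in the AL-X libraries of H1975 and A549. With no replicate block the exact permutation p of the share, the rRNA to mRNA ratio and the MT-ND6 ratio was 0.1, the smallest 3 against 3 can give, at the same mean changes of -6.22, 4.37 and 1.17. The 22 tRNA genes together had 9 counts in A549 and 2 in H1975 after AL-X, which limits what can be said of single tRNAs there.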
